A study of Mus musculus with 20 samples.

Results

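The 9 genes described here are Zfp36, Zfp36l1, Zfp36l2, Btg1, Btg2, Tob1, Noct, Cnot6l and Pnrc1. They encode proteins linked to mRNA decay, and some of them are known for roles in holding lymphocytes at rest. They were chosen by name, and all 9 were found by their identifiers among the 25246 genes of the tables that are neither mitochondrial nor spike-ins. Their transcripts were counted in single intestinal intraepithelial lymphocyte precursors (IELPs), which are thymocytes with a TCRαβ receptor and without CD4 or CD8 that give rise to T cells of the gut epithelium. The cells came from 3 genotypes, each taken here as 1 mouse. The paper writes of a mouse in some places and of mice in others, and the sample labels do not settle it. The cells were measured by CEL-Seq2, a single-cell RNA-seq method that reads the 3′ ends of transcripts and counts them by unique molecular identifiers. All 3 mice carried TBGR, a T-bet ZsGreen reporter that marks expression of Tbx21, the gene of the transcription factor T-bet. The first mouse was TBGR without an altered Myc allele, labelled wild type and 4 weeks old. The second was TBGR C-mycfl/fl, 2 weeks old, with Myc flanked by loxP sites and not deleted. The third was TBGR C-mycD/DCd4, 2 weeks old, in which Cd4-Cre, active from the stage at which thymocytes turn on Cd4, deletes Myc. Here D stands for the deleted allele (Δ). Cells were gated by T-bet and by CD122, the β chain of the receptors for IL-2 and IL-15. Cells negative for both (CD122-T-bet-) are called CD122- cells from here on, those with CD122 alone (CD122+T-bet-) are called CD122+ cells, and the CD122+ gates with intermediate (int) or high T-bet are called int and high cells. In the TBGR mouse each gate had a pair of libraries of its own, 8 in all. The C-mycfl/fl mouse had 8 libraries with 2 gates in each, CD122- with CD122+ cells in 4 and int with high cells in the other 4. The C-mycD/DCd4 mouse had 4 libraries, from the CD122- and CD122+ gates alone. Genotype cannot be told apart from the individual mouse, and the TBGR mouse also differs from the other 2 in age. In the TBGR and C-mycD/DCd4 mice no library held 2 gates, so differences between gates cannot be told apart from differences between libraries there. The text of the submission calls the sorted cells NK1.1+ and the study's methods call them NK1.1-, and the latter is followed here.

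Most mRNAs lose their poly(A) tail before they are degraded. The CCR4-NOT complex removes the tail with a pair of catalytic subunits, one of which can be Cnot6l. The ZFP36 proteins are zinc finger proteins that bind AU-rich elements in the 3′ UTRs of short-lived mRNAs and recruit CCR4-NOT to them. The BTG/TOB proteins bind the deadenylase directly and slow proliferation when they are in excess. Zfp36l1 and Zfp36l2 are needed at rest phases of early thymocyte development, and Btg1 and Btg2 keep naive T cells quiescent. Noct encodes nocturnin, a relative of the CCR4 deadenylases whose mRNA is known for its daily rhythm, and Pnrc1 encodes a nuclear receptor coactivator that also binds the decapping machinery.

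Of 1920 sorted cells, 1413 had at least 2000 transcripts and were used. They were 678 of 768 from the TBGR mouse, 470 of 768 from the TBGR C-mycfl/fl mouse and 265 of 384 from the TBGR C-mycD/DCd4 mouse. Transcripts of the RNA quality genes described below counted towards this minimum. The paper kept fewer cells at a minimum of the same size, with filters on cells and genes that were not applied here. The sums over the cells of a population in a library held between 94268 and 775264 transcripts. Genes of T cell identity were present in each of the 3 mice, while Tbx21 and Il2rb (CD122) followed the gates. In the CD122- cells Il2rb stood at 7.14, 9.88 and 2.61 transcripts per 1000000 (CPM) in the TBGR, C-mycfl/fl and C-mycD/DCd4 mouse, and in the CD122+ cells at 269, 223 and 222 CPM. Myc, the targeted gene, stood at 44.5 and 9.96 CPM in the C-mycD/DCd4 CD122+ libraries and at 73.8, 125, 135 and 10.6 CPM in those of the C-mycfl/fl mouse. In sum it stood at 25.1 CPM (exact 95% Poisson interval 14.9 to 39.7) and 99.0 CPM (77.9 to 124), and the overlap of libraries rests on library 4 of the C-mycfl/fl mouse, with 1 transcript. Which exons were flanked by loxP sites is not given in the sources used here, so the 3′ tag may lie outside the deleted part. A list of 5 genes that is used as a sign of RNA quality (mainly Gm10800) took 8.52% to 26.3% of the transcripts in the TBGR populations, 24.6% to 43.6% in those of the C-mycfl/fl mouse, and 31.8% and 29.3% in those of the C-mycD/DCd4 mouse. Library 2 of the TBGR high cells had 55 passing cells, and its markers of CD4+CD8+ double positive thymocytes summed to 269.9 CPM against 8.49 CPM in library 1. Library 4 of the C-mycfl/fl CD122+ cells had 22 passing cells, with 49.8% of transcripts from the RNA quality genes against 22.9% to 25.4% in the other 3, and 4.51% from ribosomal protein genes against 10.4% to 11.3%. Klrb1c, the gene of NK1.1, was counted with 464, 69 and 2 transcripts in the TBGR, C-mycfl/fl and C-mycD/DCd4 mouse.

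Levels are given in CPM with an exact 95% Poisson interval. CPM here are counts of transcripts and not of reads along their length. How completely each gene was captured and mapped was not measured, so an order of different genes is one of counted transcripts only. The intervals cover counting error only. With each genotype taken as 1 mouse, no test was made between populations or genotypes. A gene was called higher or lower when the log2 ratio of its summed levels was at least 1 in size, at least 100 transcripts were counted in either group, and the libraries of the groups did not overlap. For the C-mycfl/fl comparisons, where both populations share a library, the ratio had to have the same sign in all 4 libraries instead.

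Sequences that ZFP36 proteins are known to bind occurred in the mRNAs of several of the 9 genes themselves. The full-length site is the nonamer TTATTTATT in the sense strand of the 3′ UTR. It was found once each in Zfp36, Zfp36l1, Zfp36l2, Noct and Cnot6l, and not in the 3′ UTRs of Btg1, Btg2, Tob1 and Pnrc1. Of 17038 genes of the tables with an annotated 3′ UTR, 1346 (7.90%) held it. The following 30-base stretches show the site of each of these genes, with the nonamer in capitals, read 5′ to 3′ on the strand of the gene from GRCm38 with GENCODE vM21 annotation, and after them sites of Fos, Bcl2 and Nfkbia, 3 mRNAs from a list of known targets that are described below.
Zfp36 (chr7:28376950-28376979, minus strand): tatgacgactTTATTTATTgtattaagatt
Zfp36l1 (chr12:80108166-80108195, minus strand): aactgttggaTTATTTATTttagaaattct
Zfp36l2 (chr17:84184913-84184942, minus strand): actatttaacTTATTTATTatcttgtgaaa
Noct (chr3:51250858-51250887, plus strand): tcatttcaagTTATTTATTtgtgggatttt
Cnot6l (chr5:96071160-96071189, minus strand): agggaagagaTTATTTATTtttgtttcctg
Fos (chr12:85477103-85477132, plus strand): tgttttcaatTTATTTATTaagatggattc
Bcl2 (chr1:106539915-106539944, minus strand): aggcatattcTTATTTATTacatctaagag
Nfkbia (chr12:55489607-55489636, minus strand): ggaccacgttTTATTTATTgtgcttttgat
Outside the nonamer these stretches have different bases on both sides. A match is a description of the sequence, and whether it was bound in these cells was not measured.

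The 9 genes differed widely in counted transcripts. Over all passing cells 13388 transcripts of Noct were counted, followed by Zfp36l1 with 3870, Btg1 with 3371, Zfp36l2 with 2752, Pnrc1 with 2643, Cnot6l with 1488, Zfp36 with 1257, Btg2 with 904 and Tob1 with 173. Each gene was seen in all 20 libraries except Tob1, which was seen in 17. The 1920 barcodes of the same libraries that received no cell together held between 1 transcript (Btg2) and 53 transcripts (Noct) of a member. The plot of levels by mouse and population shows that most members had their lowest levels in the C-mycfl/fl mouse.

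**Figure D1:**
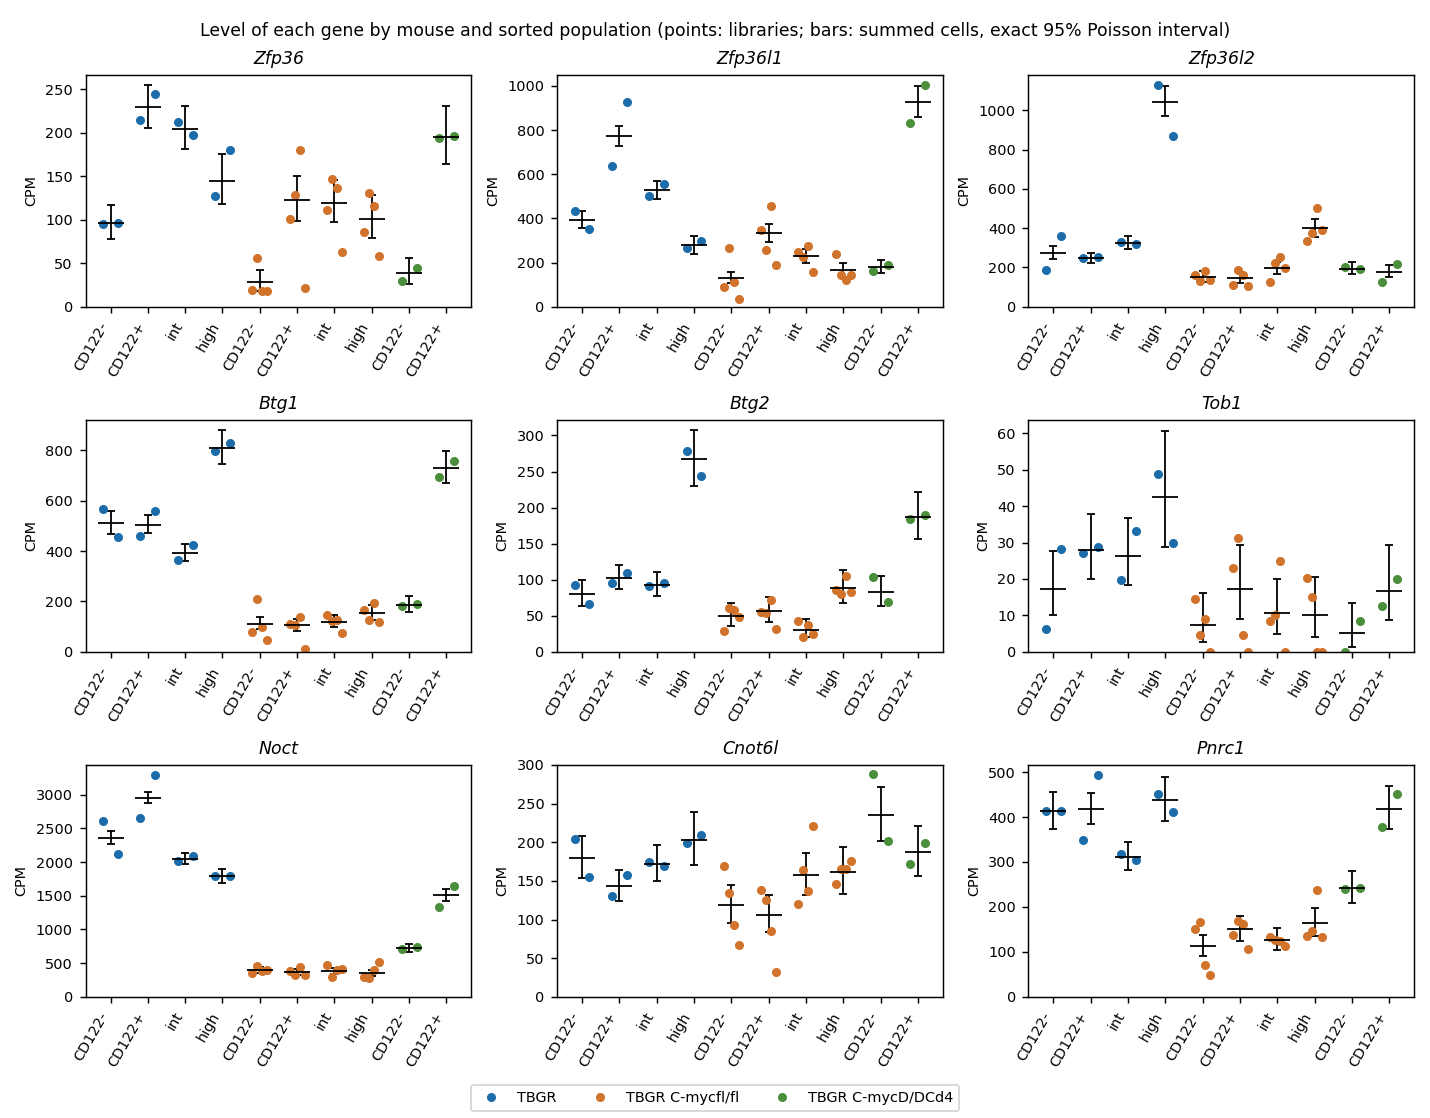
Level of each of the 9 genes in CPM (vertical axis, from 0) by mouse (colour) and sorted population (horizontal axis, CD122- and CD122+ for the T-bet-negative gates, int and high for the others). Points are libraries, and horizontal bars with whiskers are the summed cells with the exact 95% Poisson interval. Noct lies between 1790.5 and 3297 CPM in the 8 TBGR libraries and between 286 and 517 CPM in the 16 pairs of library and population of the C-mycfl/fl mouse.

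Zfp36l1 (chr12:80107754-80113013, minus strand), which with Zfp36l2 is needed at rest phases of early thymocyte development, was highest in the CD122+ cells of each mouse. In the TBGR mouse its levels were 434 and 352 CPM in the CD122-, 636 and 928 CPM in the CD122+, 502 and 555 CPM in the int and 267 and 299.8 CPM in the high libraries. No neighbouring pair of these populations overlapped. In the C-mycfl/fl mouse the CD122- libraries had 87.3, 265, 111 and 36.6 CPM and the CD122+ libraries 346, 258, 456 and 191 CPM, with library 2 the one in which the order was not kept. The int libraries of this mouse had 249, 224, 274 and 158 CPM and the high libraries 237, 145, 121 and 142 CPM, lower in each of the 4 libraries. In the C-mycD/DCd4 mouse the levels were 164 and 191 CPM in the CD122- and 832 and 1003 CPM in the CD122+ libraries. The CD122+ cells of this mouse had 928 CPM in sum (interval 859 to 1001), the highest level of any population, followed by those of the TBGR mouse with 774 CPM (730 to 820). The libraries of these 2 populations overlap.

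Zfp36 (chr7:28376784-28380253, minus strand), which encodes tristetraprolin, an immediate early protein that limits cytokine mRNAs such as that of Tnf, had its lowest levels in CD122- cells. These were 95.1 and 96.7 CPM in the TBGR, 19.4, 55.8, 17.8 and 18.3 CPM in the C-mycfl/fl and 30.1 and 45.0 CPM in the C-mycD/DCd4 libraries. In the CD122+ cells of the TBGR and C-mycD/DCd4 mice they were 215 and 245 CPM and 194 and 197 CPM. In those of the C-mycfl/fl mouse they were 101, 129, 180.4 and 21.2 CPM, with library 4 far below the other 3. The int and high cells of the TBGR mouse had 212 and 198 CPM against 127 and 179.9 CPM, with both high libraries below both int libraries. The C-mycfl/fl libraries had 112, 147, 137 and 63.3 CPM against 85.7, 130.3, 116 and 58.4 CPM, with the high cells lower in each library.

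Zfp36l2 (chr17:84183931-84187947, minus strand), a relative with roles in thymocyte selection and in holding back cytokine production of effector T cells, followed another order and was highest in the high cells. In the TBGR mouse it stood at 188 and 358 CPM in the CD122-, 248 and 251 CPM in the CD122+, 332 and 319 CPM in the int and 1131 and 869.5 CPM in the high libraries. The high cells lay above each other TBGR library, while the first 2 populations overlapped. In the C-mycfl/fl mouse the int libraries had 124, 224, 255 and 196 CPM and the high libraries 333, 376, 501 and 392 CPM, with no overlap. The T-bet- cells of the C-mycfl/fl mouse had between 106 and 187 CPM and those of the C-mycD/DCd4 mouse between 127 and 219 CPM. Among the 28 pairs of library and population, the correlation of log2(CPM + 10), with the mean of each mouse subtracted, was 0.77 between Zfp36 and Zfp36l1 and -0.28 between Zfp36l1 and Zfp36l2. Pairs from 1 mouse or library share its depth and composition, so these values are descriptions.

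Btg1 (chr10:96617006-96622809, plus strand), an antiproliferative gene first found at a translocation in leukemia, was lower in the C-mycfl/fl mouse than in the TBGR mouse throughout. The TBGR libraries had 568 and 455 CPM in the CD122-, 459 and 558 CPM in the CD122+, 365 and 424 CPM in the int and 799.8 and 831 CPM in the high cells. The CD122- and CD122+ cells overlapped, the int cells lay below them and the high cells above. In the C-mycfl/fl mouse the lowest library value was 10.6 CPM, the median 119 CPM and the highest 209 CPM over 16 pairs of library and population. The C-mycD/DCd4 libraries had 181 and 191 CPM in the CD122- and 696 and 759 CPM in the CD122+ cells, so only the CD122+ cells of that mouse reached the range of the TBGR mouse. Annotated pseudogenes can take reads of Btg1, and the one in the tables, Btg1-ps2, had 0 transcripts.

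Btg2 (chr1:134075170-134079120, minus strand), a target of p53 and of growth arrest signals, was less abundant and had a similar order. Its TBGR libraries had 93.0 and 66.4 CPM in the CD122-, 95.5 and 109.6 CPM in the CD122+, 90.9 and 94.9 CPM in the int and 278 and 244 CPM in the high cells. In the C-mycfl/fl mouse the int libraries had 42.9, 20.1, 37.3 and 25.3 CPM and the high libraries 85.7, 80.2, 105 and 83.4 CPM, again without overlap. The T-bet- libraries of that mouse had between 29.1 and 72.2 CPM. The C-mycD/DCd4 libraries had 104 and 68.6 CPM in the CD122- and 184 and 189 CPM in the CD122+ cells. Tob1 (chr11:94211454-94215495, plus strand), a BTG relative that restrains T cell activation, was rare. Its TBGR libraries had between 6.20 and 48.8 CPM and overlapped between neighbouring populations. It was at 0 in 5 of the 16 C-mycfl/fl pairs of library and population and in 1 of 4 of the C-mycD/DCd4 mouse. A count of 0 allowed up to 31.8 CPM in the shallowest of them. In sum Tob1 stood at 17.3 CPM (10.1 to 27.8) in the CD122- and 42.6 CPM (28.7 to 60.8) in the high cells of the TBGR mouse, whose libraries did not overlap, with 28.2 CPM as the highest of the former and 29.98 CPM as the lowest of the latter. It had under 100 transcripts in every population and could not be called in any comparison.

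The members were looked at for motifs near their start, since several were called together in the comparisons below. RefSeq promoters of build GRCm38.p6 (250 bases before to 50 bases after each start) matched 8 of the 9 members, all but Zfp36l2. Searched on both strands were the cAMP response element TGACGTCA, its shorter form TGACGT that it contains, the AP-1 site TGANTCA, the E-box CACGTG, the FOXO site TGTTTAC and the SRF site by its name CArG. The full element was in the promoter of Btg2 and in 1.79% of 32851 promoters. The shorter form was in those of Btg1 and Btg2 and in 7.51% of all, the FOXO site in that of Btg1 and in 3.65%, the AP-1 site in that of Zfp36l1 and in 7.81%, and the SRF site in that of Zfp36 and in 1.63%. None of the 8 had the E-box, which 7.15% of promoters had and which is the site of MYC with MAX. The 250 bases before the start of 3 members are shown with these matches in capitals, to give their place.
Zfp36l1, AP-1 site (chr12:80113014-80113263, minus strand): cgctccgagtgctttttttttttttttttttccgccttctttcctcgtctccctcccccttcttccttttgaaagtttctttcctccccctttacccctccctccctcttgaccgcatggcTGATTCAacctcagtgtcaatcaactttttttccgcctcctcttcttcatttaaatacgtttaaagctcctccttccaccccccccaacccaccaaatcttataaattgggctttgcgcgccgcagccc
Btg1, FOXO site and TGACGT on the other strand (chr10:96616751-96617000, plus strand): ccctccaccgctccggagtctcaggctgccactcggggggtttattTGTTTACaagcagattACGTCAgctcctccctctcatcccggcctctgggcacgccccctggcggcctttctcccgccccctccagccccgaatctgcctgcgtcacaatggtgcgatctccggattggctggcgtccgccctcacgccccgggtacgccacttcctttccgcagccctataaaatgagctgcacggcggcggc
Btg2, TGACGTCA (chr1:134079156-134079405, minus strand): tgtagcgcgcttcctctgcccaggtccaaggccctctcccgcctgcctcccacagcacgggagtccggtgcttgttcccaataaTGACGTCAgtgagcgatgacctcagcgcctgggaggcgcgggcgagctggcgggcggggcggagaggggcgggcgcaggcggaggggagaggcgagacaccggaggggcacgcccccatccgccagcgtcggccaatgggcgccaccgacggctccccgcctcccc
The matches began 129 bases before the start in Zfp36l1, 204 and 188 bases before it in Btg1 and 166 bases before it in Btg2. No measurement of binding or of promoter activity was made in these cells.

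Noct (chr3:51224447-51251644, plus strand) had the highest CPM of the members in each population except the high cells of the C-mycfl/fl mouse, where Zfp36l2 stood at 399 and Noct at 354 CPM. Its TBGR libraries had 2609 and 2126 CPM in the CD122-, 2653 and 3297 CPM in the CD122+, 2012 and 2092 CPM in the int and 1793 and 1790.5 CPM in the high cells. In the C-mycfl/fl mouse the 16 pairs of library and population lay between 286 and 517 CPM with a median of 384 CPM, and their 4 populations overlapped. The C-mycD/DCd4 libraries lay between these mice, with 709 and 737 CPM in the CD122- and 1334 and 1638 CPM in the CD122+ cells. Gm38357, a gene model on the same strand inside Noct, had 19 transcripts in all.

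Malat1, an abundant nuclear RNA, was the gene whose pattern over the 28 pairs of library and population was most like that of Noct when the mean of each mouse was subtracted (Pearson's r = 0.62 of log2(CPM + 10), with 1259 genes of at least 100 CPM on average compared). The difference between the mice, which this value leaves out, was also in the same order. Malat1 ranged from 5161 to 9080.3 CPM in the TBGR, from 668 to 1721 CPM in the C-mycfl/fl and from 3552 to 9175 CPM in the C-mycD/DCd4 libraries. The C-mycfl/fl libraries were thus the lowest for both genes, while the C-mycD/DCd4 CD122+ cells reached the TBGR range for Malat1 and not for Noct. Malat1 belongs to the 5 genes used as a sign of RNA quality, and its part in the levels of Noct and the other members was not tested. The plot against Malat1 shows this for 3 members.

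**Figure D2:**
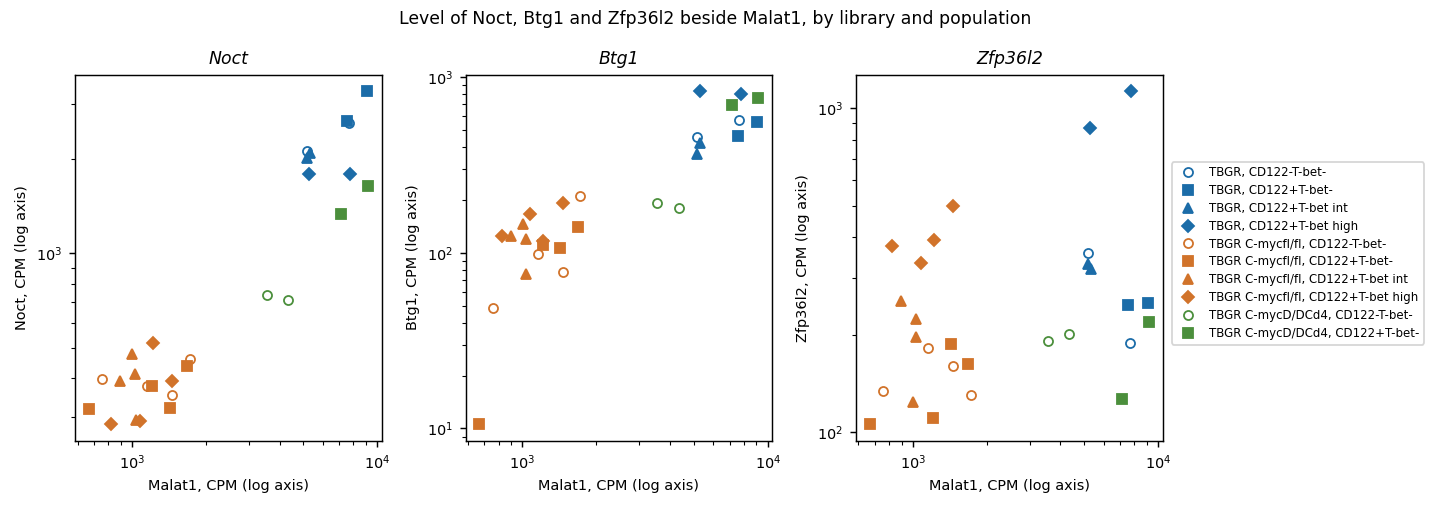
Level of Noct, Btg1 and Zfp36l2 (vertical axes, CPM, log scale) against that of Malat1 (horizontal axes, CPM, log scale) in the 28 pairs of library and population. Colour gives the mouse and the symbol the sorted population. For Noct and Btg1 the C-mycfl/fl points form a separate group at low Malat1 (668 to 1721 CPM), while for Zfp36l2 the high cells of the TBGR and C-mycfl/fl mice stand above the other points of their mouse.

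Cnot6l (chr5:96070333-96164171, minus strand), the catalytic deadenylase subunit, was lower in the T-bet-negative cells of the C-mycfl/fl mouse. In sum it stood at 119 CPM (96.0 to 145) in its CD122- cells, against 235 CPM (202 to 272) in those of the C-mycD/DCd4 mouse. Over all gates its lowest, median and highest library values were 130.3, 172 and 209.9 CPM in the TBGR, 31.8, 138 and 221 CPM in the C-mycfl/fl and 172, 200.3 and 288 CPM in the C-mycD/DCd4 mouse, and these 3 ranges overlap. Pnrc1 (chr4:33245423-33290163, minus strand) had 413 and 413 CPM in the CD122-, 349.6 and 494 CPM in the CD122+, 318 and 305 CPM in the int and 452 and 411 CPM in the high libraries of the TBGR mouse. Its C-mycfl/fl values lay between 48.8 and 237 CPM, below each TBGR value. The C-mycD/DCd4 libraries had 241 and 242 CPM in the CD122- and 378 and 451 CPM in the CD122+ cells.

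The first 3 comparisons follow the gates of the TBGR mouse. From CD122- to CD122+ cells, 1 of the 8 members with enough transcripts was called, where 13.7% of 2651 genes were called in either direction and 63.6% had no overlap of libraries. This was Zfp36, with a log2 ratio of 1.25 (interval 0.92 to 1.60, 337 and 94 transcripts). Zfp36l1 was just under the limit at 0.98 (0.81 to 1.15) and was called without library 1 of either population (1.24 and 1.13). The median ratio of all genes was 0.34 and that of the members 0.17, and with the median over genes subtracted Zfp36 stood at 0.92. From CD122+ to int cells none of the 8 members was called, where 5.2% of 2807 genes were and 61.5% had no overlap. The largest ratios were -0.55 (-0.69 to -0.41) for Zfp36l1 and -0.53 (-0.60 to -0.46) for Noct, neither with overlapping libraries.

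From int to high cells of the TBGR mouse 3 of 8 members were called, all higher, where 16% of 2387 genes were called, 4.82% were called higher and 63.8% had no overlap. Over all genes 115 were called higher and 266 lower, and 181 and 172 with the median of all genes subtracted, where these 3 members were called as well. Zfp36l2 had a log2 ratio of 1.68 (1.51 to 1.86), Btg2 of 1.52 (1.18 to 1.87) and Btg1 of 1.04 (0.87 to 1.22). The members' median was 0.37 against -0.22 for all genes. Zfp36l1 was lower by the same measure at -0.92 (-1.16 to -0.69), which did not reach the limit, and Zfp36 stood at -0.50, Noct at -0.19, Cnot6l at 0.24 and Pnrc1 at 0.49. Btg1 was not called without int library 1 (0.93), without cycling cells (0.78) or with each cell given the same weight (0.82), and in the latter 2 settings Zfp36l1 was called lower (-1.12 and -1.10). Leaving out the high library with double positive markers, library 2, left all 3 called. With every cell thinned to 2000 transcripts Zfp36l2 was called higher and Zfp36l1 lower (-1.13). The share of cycling cells moved with this comparison, from 27 of 171 int to 2 of 147 high cells. Near the limit for cycling lay 33 int and 2 high cells, so leaving out cells above it may not remove the whole difference. The part of cycling in the members' ratios was not tested.

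In the C-mycfl/fl mouse the same pair of gates gave 1 call among 7 members, where 5.6% of 1108 genes were called and 44.3% had 1 sign in all 4 libraries. This was Zfp36l2, with a log2 ratio of 1.01 (0.73 to 1.30) in sum and of 0.74 to 1.40 within the 4 libraries. Since it lies at the limit, it was not called without library 1 (0.92) or library 3 (0.98). Btg2 had a ratio of 1.52 (0.85 to 2.26), positive in 4 of 4 libraries, and was not called because it rested on 62 and 26 transcripts. Btg1 stood at 0.35 (-0.05 to 0.76) and Zfp36l1 at -0.47 (-0.82 to -0.13), each with 1 sign in 4 of 4 libraries. The TBGR and C-mycfl/fl mice thus had the same sign for these 4 members, and the size of the differences between the mice was not tested.

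Between CD122+ and CD122- cells of the C-mycfl/fl mouse, none of the 4 members with enough transcripts was called, where 18.3% of 952 genes were and 55.7% had 1 sign in all 4 libraries. Zfp36 had a ratio of 2.09 (1.44 to 2.84), positive in 4 of 4 libraries, on 93 and 23 transcripts. Zfp36l1 had 1.34 (1.01 to 1.69) and missed the call through library 2, where it was -0.04. Without that library it was called at 2.13. The median of all genes was 0.63 in this comparison. The genes of the RNA quality list took 43.6% of transcripts in the CD122- and 27.4% in the CD122+ cells, and their part in the ratios was tried by leaving them out of the total, which gave no call of a member.

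The same gates were compared in the C-mycD/DCd4 mouse. From CD122- to CD122+ cells 5 of 8 members were called, all higher, where 26.9% of 1117 genes were called, 16.7% were called higher and 69.4% had no overlap of libraries. The log2 ratio was 2.36 (2.10 to 2.64) for Zfp36l1, 2.30 (1.74 to 2.94) for Zfp36, 1.97 (1.70 to 2.25) for Btg1, 1.18 (0.74 to 1.64) for Btg2 and 1.05 (0.90 to 1.20) for Noct. Pnrc1 stood at 0.79 (0.52 to 1.06), Zfp36l2 at -0.12 (-0.48 to 0.23) and Cnot6l at -0.33 (-0.66 to 0.00). The members' median was 1.11 against -0.05 for all genes. Of the 5 calls, that of Noct was lost without CD122+ library 2 (0.88), and that of Btg2 without either CD122+ library, where under 100 transcripts were left, or without CD122- library 2 (0.83). The call of Zfp36 was lost without either CD122+ library, again for its number of transcripts, at ratios of 2.31 and 2.29. Cycling cells were 28 of 128 in the CD122- and 2 of 137 in the CD122+ cells. Without them Noct (0.74) and Btg2 (0.86) were not called, while Zfp36, Zfp36l1 and Btg1 (1.46) were. With each cell given the same weight Noct (0.78) and Btg2 (0.83) were likewise not called, and after thinning the calls were Zfp36l1 and Btg1. Over all genes 187 were called higher and 114 lower, against 57 and 155 without CD122+ library 2 and 191 and 22 without CD122- library 2. Markers of double positive thymocytes summed to 686 CPM (643 to 753 by library) in the CD122- and to 44.7 CPM (38.1 to 49.8) in the CD122+ cells, while those of B cells summed to 128 CPM and 334 CPM and those of regulatory T cells to 77.1 CPM and 202 CPM. The part of these cells was not tested.

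The 2 comparisons of the C-mycD/DCd4 with the C-mycfl/fl mouse ask how the cells of a mouse with deleted Myc differed from those of a mouse without deletion in each T-bet-negative gate. Each uses a population of either mouse that also enters a comparison within that mouse, so the ratios of these comparisons share samples, as do those of successive gates of the TBGR mouse. In CD122- cells 1 of 6 members was called, where 15.4% of 924 genes were and 37.1% had no overlap. This was Pnrc1, at 1.10 (0.74 to 1.48). With the median of all genes (0.48) subtracted it stood at 0.62. It was not called without C-mycfl/fl library 3 or 4 (0.91 in each case) or without C-mycD/DCd4 library 2, where too few transcripts were left and the calls over all genes went from 142 to 46. Cnot6l had 0.99 (0.62 to 1.36) and was called without C-mycfl/fl library 1 (1.21) or 2 (1.06), and without the latter also Zfp36l1 (1.12) and Btg1 (1.26). Double positive markers summed to 686 CPM in the C-mycD/DCd4 and 263 CPM in the C-mycfl/fl cells, and cycling cells were 28 of 128 against 15 of 120.

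In CD122+ cells 5 of 8 members were called, all higher in the C-mycD/DCd4 mouse, where 27.6% of 1147 genes were called, 14.7% were called higher and 47% had no overlap of libraries. The log2 ratio was 2.78 (2.45 to 3.15, 6.89-fold) for Btg1, 2.02 (1.83 to 2.21) for Noct, 1.71 (1.21 to 2.25) for Btg2, 1.48 (1.27 to 1.69) for Zfp36l1 and 1.47 (1.16 to 1.80) for Pnrc1. Cnot6l at 0.82 and Zfp36 at 0.67 were higher without overlap of libraries, and Zfp36l2 at 0.27 (-0.10 to 0.65) overlapped. The members' median was 1.48 and that of all genes -0.02. Btg2 lost its call without either C-mycD/DCd4 library, when 76 and 58 of its transcripts were left, and Cnot6l was called without C-mycfl/fl library 1 (1.01). Markers of other cell types were also higher. Those of γδ T cells (4 of 5 measured genes seen in either mouse) summed to 1061 CPM (1036 to 1093 by library) in the C-mycD/DCd4 and 397 CPM (189 to 696) in the C-mycfl/fl cells, and those of NKT cells (5 of 5 in either) to 303 CPM (257 to 339) and 135 CPM (117 to 157). Regulatory T cell markers (5 of 5 in either) summed to 202 CPM (178 to 222) and 93.7 CPM (23.0 to 149), and B cell markers to 334 CPM (108 to 510) with 6 of 6 genes seen and 87.1 CPM (69.1 to 108) with 3 of 6. Their part in the members' ratios was not tested. Without C-mycD/DCd4 library 2 the calls over all genes went from 169 higher and 147 lower to 45 and 190, while 4 members were called. Cycling cells were 2 of 137 in the C-mycD/DCd4 and 33 of 122 in the C-mycfl/fl mouse, and with the cycling cells left out these 5 members were called as well. Malat1 moved with this comparison at 2.62 (2.52 to 2.72), and the 5 RNA quality genes together took 29.3% and 27.4% of transcripts. The part of Malat1 was not tested.

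**Figure D3:**
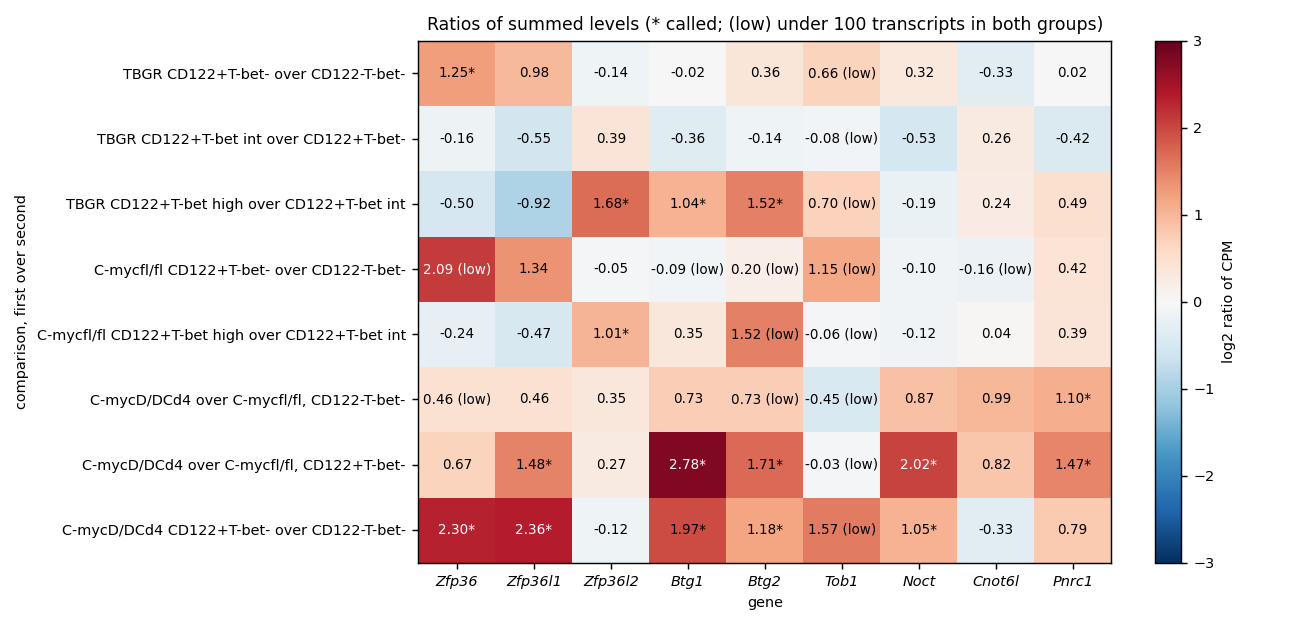
Log2 ratio of CPM of each of the 9 genes (columns) in the 8 comparisons (lines, first over second population). Colour gives the ratio from -3 to 3, an asterisk a call and (low) fewer than 100 transcripts in both groups. Calls fall on Zfp36l2, Btg1 and Btg2 in the TBGR high over int comparison and on 5 members each in the lower 2 lines, where the highest is 2.78 for Btg1.

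The members were set beside other genes of the decay machinery. Of 18 measured genes of the CCR4-NOT and related deadenylase list, 8 had enough transcripts from CD122- to CD122+ cells of the TBGR mouse and 1 was called, Pabpc4, a poly(A) binding protein, at 1.60. From int to high cells 6 were tested and Pabpc4 was called lower at -1.03. In the other 6 comparisons between 2 and 8 genes of this list were tested and none was called. Of 29 measured genes of decapping and of decay from either end, between 1 and 8 were tested. Exosc8, an exosome subunit, was lower in TBGR high than in int cells at -1.07, and in CD122+ cells of the C-mycD/DCd4 against the C-mycfl/fl mouse Ddx6, a helicase of decapping, stood at 1.04 and Lsm6, a subunit of the ring that binds shortened tails, at -2.07. Of 17 other RNA-binding regulators, between 5 and 12 were tested. Ybx1, which protects mRNAs and is high in dividing cells, was lower in TBGR high than in int cells at -1.11 and lower in CD122+ cells of the C-mycD/DCd4 than of the C-mycfl/fl mouse at -1.04, while Tnrc6b, which links microRNAs to CCR4-NOT, was higher in the CD122- and CD122+ cells of the C-mycD/DCd4 mouse at 1.27 and 1.60.

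Genes of T cell quiescence split in the TBGR mouse. From int to high cells 14 of 21 were tested, with 3 called higher and 5 lower. Over all genes 4.82% were called higher and 16% in either direction. Txnip, an inhibitor of glucose uptake, stood at 2.01 and Il7r at 1.89, with Klf6 as the third, while S1pr1 at -4.10, Tcf7 at -3.02 and Lef1 at -1.41, genes of naive and recirculating T cells, were among those lower. The median of the tested genes was 0.08 against -0.22 for all genes. In CD122+ cells of the C-mycD/DCd4 against the C-mycfl/fl mouse 6 of 11 were called higher and 0 lower, with a median of 1.02 against -0.02, among them Klf6 (2.42), Klf3 (1.81), Bach2 (1.55) and Foxp1 (1.42). Over all genes 14.7% were called higher. From CD122- to CD122+ cells of the C-mycD/DCd4 mouse 5 of 11 were higher and 0 lower, among them S1pr1 (2.98), Klf2 (2.83) and Foxo1 (2.10), where 16.7% of all genes were called higher. For CD122+ over CD122- cells of the TBGR mouse 1 of 17 was higher, Klf2 at 1.72, and 4 were lower, among them Slfn2 at -1.33, Bach2 at -1.27 and Txnip at -1.10. Of all genes 13.7% were called in either direction.

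Immediate early genes, which are induced by signals and also by the handling of cells, include Zfp36 and Btg2 by their known behaviour and moved with several members. In CD122+ cells of the C-mycD/DCd4 against the C-mycfl/fl mouse 4 of 8 tested were called higher and 0 lower, Jun at 2.21, Fos at 2.15, Nfkbia at 1.62 and Junb at 1.23, with a median of 0.98. Over all genes 14.7% were called higher, with a median of -0.02. From CD122- to CD122+ cells of the C-mycD/DCd4 mouse 6 of 7 were higher with a median of 1.98, against 16.7% and -0.05 over all genes. The list summed to 2396 CPM (2083 to 2641 by library) in the C-mycD/DCd4 CD122+ cells, to 721 CPM (636 to 776) in its CD122- cells and to 1238 CPM (520 to 1394) in the C-mycfl/fl CD122+ cells. In the TBGR mouse the high cells had 3157 CPM (2733 to 3367) and the int cells 2419 CPM (2299 to 2546), where Dusp1 was called higher at 2.47 and Fos (-1.37) and Egr1 (-1.13) lower. The part of cell handling in the members' ratios was not tested.

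Of 15 mRNAs known as ZFP36 family targets, 6 had enough transcripts in the C-mycD/DCd4 comparisons of CD122+ cells. Against the C-mycfl/fl mouse 4 of 6 were called higher and 0 lower, with a median of 1.68, namely Fos, the early activation marker Cd69 (1.90), the survival gene Bcl2 (1.74) and Nfkbia, which inhibits NF-κB. Over all genes 14.7% were called higher, with a median of -0.02. Fos and Nfkbia are also on the immediate early list above, and Cd69 has no TTATTTATT in its annotated 3′ UTR. From CD122- to CD122+ cells of the C-mycD/DCd4 mouse 5 of 6 were higher with a median of 1.75, Bcl2 at 2.24, Nfkbia at 2.15, Pim1 at 2.01 and Fos at 1.49 among them. Over all genes 16.7% were called higher, with a median of -0.05. Between TBGR int and high cells 2 of 6 were lower, the kinase gene Cdk6 at -1.90 and Fos, where 16% of all genes were called in either direction. Zfp36l1 and the targets called higher in the C-mycD/DCd4 comparisons were thus higher in the same summed populations. Whether single cells held both was not examined, and RNA stability was not measured.

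Genes with and without the nonamer in the 3′ UTR were then compared over all genes tested. In CD122+ cells of the C-mycD/DCd4 against the C-mycfl/fl mouse the 74 tested genes with the nonamer had a median log2 ratio of 0.65 and those without it -0.11, and 25.7% against 13.8% were called higher and 8.11% against 13.3% lower. In CD122- cells the medians of the same pair of mice were 0.78 for 64 genes with it and 0.50 without it, and 31.2% against 13.8% were called higher and 0% against 0.535% lower. For CD122+ over CD122- cells of the C-mycD/DCd4 mouse 23.2% against 17.2% were called higher and 13.4% against 9.97% lower, and for the same gates of the C-mycfl/fl mouse 8.51% against 17.5% were called higher and 8.51% against 1.38% lower. The medians with and without the nonamer were 0.05 and 0.01 in the C-mycD/DCd4 mouse and 0.43 and 0.67 in the C-mycfl/fl mouse. For TBGR high over int cells the medians were -0.22 with it and -0.24 without it. Genes with the nonamer also had longer 3′ UTRs, with a median of 2735.5 bases against 1009 bases in the CD122+ comparison, and the part of length was not tested.

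Within populations the members were also compared between cycling cells, in which genes of the cell cycle took at least 1% of transcripts, and other cells. In 5 populations both kinds had at least 20 cells. Btg1 was lower in cycling cells in 5 of 5 populations, at log2 ratios of -2.19 to -0.55, with the interval below 0 in 3. With a limit of 0.5% in place of 1% it was lower in 6 of 7 populations, at -1.88 to 0.28. Noct was lower in 5 of 5, at -1.14 to -0.36, with the interval below 0 in 4, and in 7 of 7 at the lower limit. Among 305 genes outside the cell cycle list with enough transcripts in each population, 9.18% were lower in each of the 5 populations and 45.2% higher. Noct was the 1 member with enough transcripts in each. Btg1 had 65, 84 and 86 transcripts in the other cells of the C-mycfl/fl CD122+, int and high populations. The share over these genes is therefore not a like background for Btg1. In the C-mycD/DCd4 CD122- cells Btg1 had 57.5 CPM in 28 cycling and 268 CPM in 100 other cells, and Noct 426 and 915 CPM. In the TBGR int cells Btg1 had 179 CPM in 27 cycling and 481 CPM in 144 other cells, and Noct 1104 and 2436 CPM. The other members did not keep 1 sign. Zfp36l1 was lower in 3 of 5 with the interval below 0 in those 3, and Zfp36l2 had 1 interval below and 1 above 0. Cycling cells of the TBGR int, C-mycD/DCd4 CD122- and C-mycfl/fl high populations were deeper, with medians of 12042, 9323 and 7013.5 transcripts against 5995.5, 3897.5 and 5775 in other cells, while those of the C-mycfl/fl CD122+ and int populations were not, with 5730 and 4994 against 6014 and 7192. The median log2 ratio of all genes was 1.63 in the C-mycD/DCd4 CD122- cells and between -0.05 and 0.49 in the other 4 populations.

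**Figure D4:**
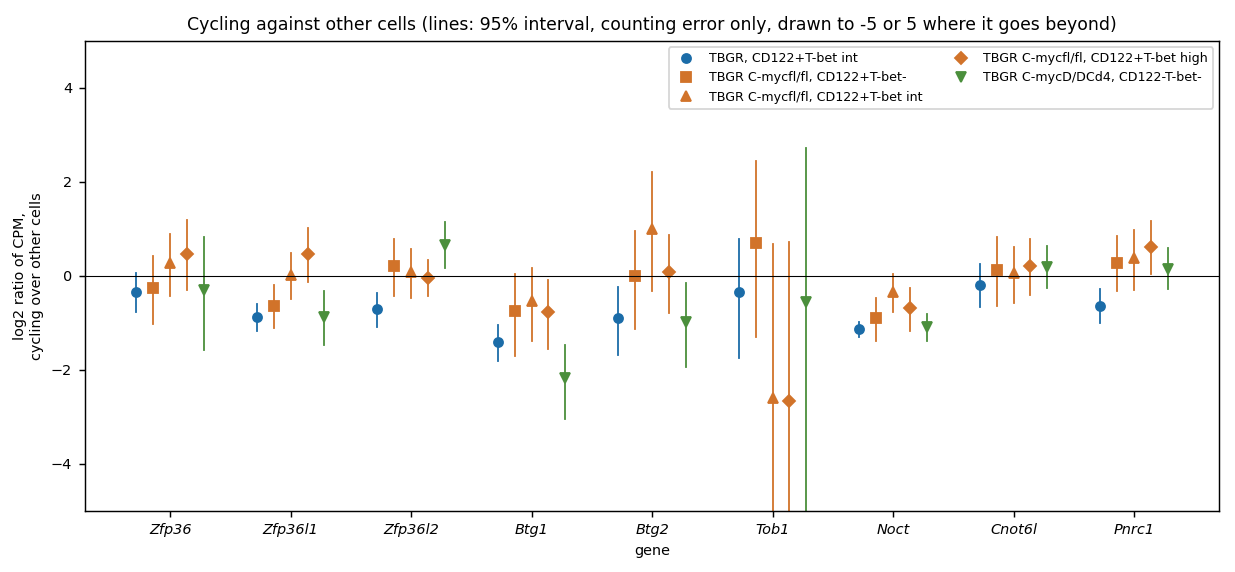
Log2 ratio of CPM of cycling over other cells (vertical axis) for each of the 9 genes (horizontal axis) in the 5 populations with at least 20 cells of either kind. Symbols are populations, colours mice, and lines the 95% interval for counting error, drawn to the edge where they go beyond it. All 5 symbols lie below 0 for Btg1, between -2.19 and -0.55, and for Noct, between -1.14 and -0.36.

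The share of cells with a transcript was compared after each cell was thinned to 2000 transcripts, which left out no passing cell. In the TBGR mouse it went from 43.3% (exact binomial interval 35.7% to 51.1%) of int to 81.6% (74.4% to 87.5%) of high cells for Zfp36l2, from 55.0% (47.2% to 62.6%) to 80.3% (72.9% to 86.4%) for Btg1 and from 16.4% (11.2% to 22.8%) to 44.2% (36.0% to 52.6%) for Btg2. It went the other way for Zfp36l1, from 60.8% (53.1% to 68.2%) to 43.5% (35.4% to 52.0%), and for Zfp36, from 35.1% (28.0% to 42.7%) to 20.4% (14.2% to 27.8%). Before thinning the shares of these 5 genes in int and high cells were 79.5% and 95.9%, 87.7% and 91.2%, 39.8% and 66.0%, 91.2% and 67.3%, and 62.0% and 45.6%. In the C-mycD/DCd4 mouse the share was higher where the level was higher, going from 29.7% (21.9% to 38.4%) of CD122- to 72.3% (64.0% to 79.6%) of CD122+ cells for Zfp36l1 and from 40.6% (32.0% to 49.7%) to 68.6% (60.1% to 76.3%) for Btg1, at 46.9% and 92.0% and at 55.5% and 90.5% before thinning. Noct was present in 92.5% to 98.4% of cells of the TBGR populations and in 44.0% to 52.5% of those of the C-mycfl/fl populations after thinning, and in 97.7% to 100% and 73.8% to 85.8% before it. No cell type of these samples is known to lack the members, and barcodes without a cell held at most 0.0276 transcripts of a member each, for Noct, where a passing cell held 9.47. These intervals too cover counting error only. The 2000 transcripts of a thinned cell include those of the RNA quality genes. These took 8.52% to 26.3% of transcripts in the TBGR populations and 24.6% to 43.6% in the C-mycfl/fl populations. They took 31.8% and 29.3% in the C-mycD/DCd4 populations, and their part in the shares was not tested.

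**Figure D5:**
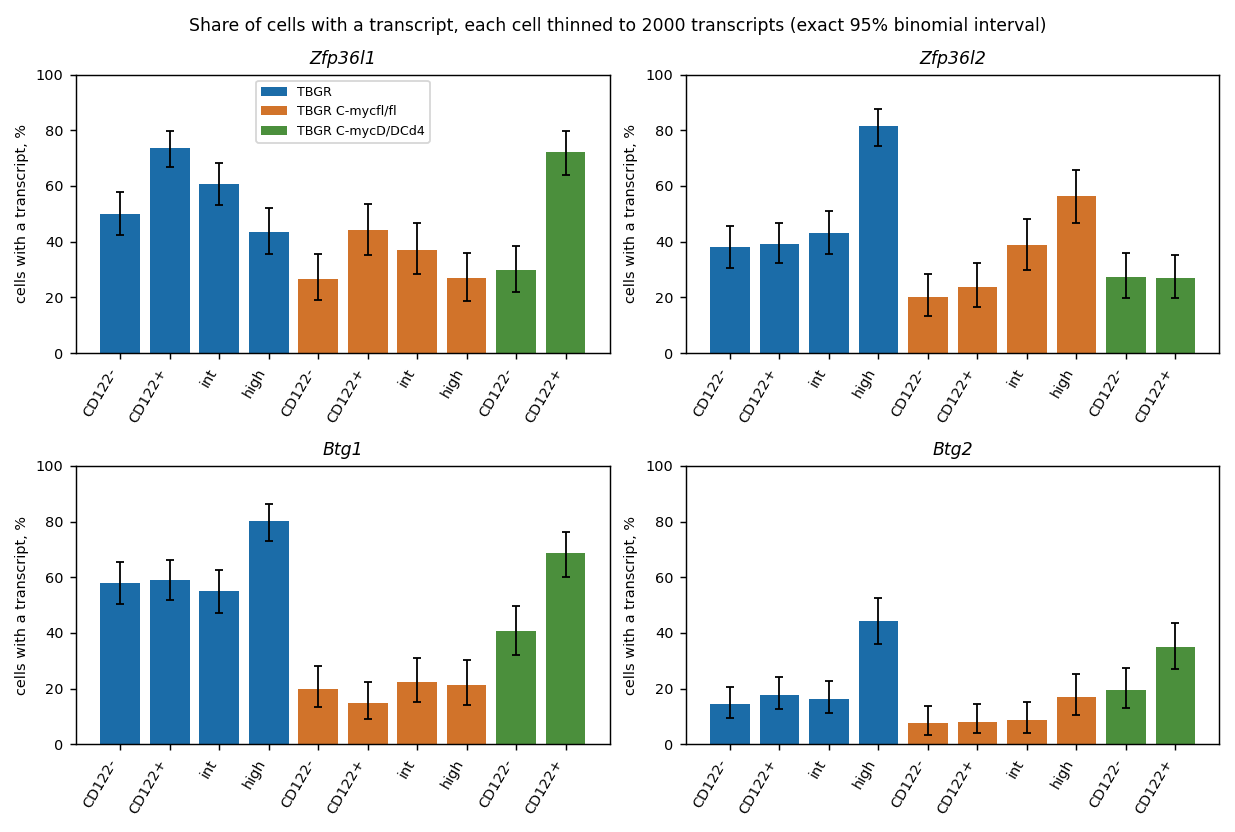
Share of cells with at least 1 transcript (vertical axis, percent) of Zfp36l1, Zfp36l2, Btg1 and Btg2 after thinning each cell to 2000 transcripts, by population (horizontal axis) and mouse (colour). Whiskers are exact 95% binomial intervals. The TBGR high cells reach 81.6% for Zfp36l2 and 80.3% for Btg1, while the C-mycD/DCd4 CD122+ cells reach 72.3% for Zfp36l1 and 68.6% for Btg1.

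Genes most like each member over the 28 pairs of library and population were named by Pearson's r of log2(CPM + 10), with the mean of each mouse subtracted, among the same 1259 genes. Pairs of a library share its depth and composition, and the values describe these libraries only. For Zfp36l1 they were Bcl2 (0.90), Foxo1 (0.89) and Ephx1 (0.87), and for Zfp36 they were Cotl1 (0.89), Sept11 (0.89) and Vim (0.88). Zfp36l2 was most like Ms4a6b (0.85), Klra10 (0.85) and Gzmb (0.85), of which the latter 2 encode an NK cell receptor and the cytotoxic granule protease granzyme B. Btg1 was most like Mycbp2 (0.81), Tbc1d10c (0.80) and Nlrc3 (0.79), Btg2 like Gbp7 (0.70), Gimap3 (0.70) and AW112010 (0.68), and Pnrc1 like Cd53 (0.80), Gimap6 (0.79) and Cox7a2l (0.72). Cnot6l was most like Sh3kbp1 (0.78), Leprotl1 (0.75) and Saraf (0.74) and Noct, after Malat1, like Nr4a2 (0.59) and Utrn (0.59). Tob1, with few transcripts, was most like Casp8 (0.77), Rbx1 (0.70) and Ubb (0.68). Among the members themselves the correlation was 0.63 between Btg1 and Pnrc1, 0.61 between Btg1 and Btg2 and -0.34 between Zfp36l2 and Noct.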

How the data were processed

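The authors sequenced CEL-Seq2 libraries of singly sorted cells, demultiplexed them with bcl2fastq 2.17.1.14 and aligned reads with bwa 0.6.2-r126 to GENCODE VM9 transcripts, with isoforms merged per gene, sense reads only and reads of several genes discarded. They counted UMIs of 6 bases and converted them to estimated counts of transcripts, the deposited unit (expected counts). Every table entry was compared with the whole numbers of UMIs and equals 1 of them after this correction. Genes of the mitochondrial genome and the spike-ins did not enter the totals, values were rounded and cells with at least 2000 transcripts were summed per library and population (94268 to 775264 transcripts). A barcode number names a well within 1 library, so no cells are shared. Cells were sorted singly and no doublet caller was run. CPM, exact intervals at 95% and log2 ratios with 0.5 transcripts added were computed in Python 3.11.15 with numpy 2.4.6, scipy 1.17.1 and pandas 2.3.3. With each genotype taken as 1 mouse, no count model was run, since cells and libraries of 1 mouse are not replicates, and no p-values are given. The rule for calls was tried on simulated Poisson counts with 4-fold changes in 200 genes and no differences between libraries of a group. Real libraries differ, and a log2 ratio of 1 is enough for a call. The simulation therefore does not tell how often the calls made here are wrong. Members, lists and comparisons were chosen with earlier results of these data known. Members are named in every comparison, and of each list at most the 4 called genes with the largest ratios, except 1 gene that is not reported here. Alternatives changed the total, the filters on cells and genes, rounding, thinning and the libraries used.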

Additional observations from a re-analysis of the deposited data

Results flagged for a closer look

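A library far from the other 3 of its group was found in 2 of 36 groups of 4 libraries, all from the C-mycfl/fl mouse. Chance alone would give about 1 in 20, which is near the share found. Groups of different genes share libraries and are not independent. Zfp36 in the CD122- cells stood at 55.8 CPM in library 2 and between 17.8 and 19.4 CPM in the other 3. Pnrc1 in the high cells stood at 237 CPM in library 3 and between 134 and 145 CPM in the other 3.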

How the results depend on the processing

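No log2 ratio of a called member changed sign under any alternative. Of the ratios of single members under the alternatives, 1143 moved by less than the spread between libraries and 63 by more. The limits of 3000 transcripts per cell, 10 transcripts per gene and none, the median subtracted from the ratios and the other settings below were tried 1 at a time, and leaving the 5 RNA quality genes out of the total was chosen after the data had been seen. For each change of call the cause was not tested.

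For CD122+ over CD122- cells of the TBGR mouse the number of members called was 1, against 0 with the median of all genes subtracted and 2 without ribosomal protein genes in the total, with the mean over cells or without cycling cells, and 1 to 2 with a library left out. After thinning it was 1, but Zfp36l1 (1.04) in place of Zfp36, which had too few transcripts. For TBGR int over CD122+ cells it was 0 in each setting. For TBGR high over int cells it was 2 to 3, also with a library left out. For CD122+ over CD122- cells of the C-mycfl/fl mouse it was 0, against 1 without ribosomal protein genes, with cells of at least 1000 transcripts, with genes of at least 10 transcripts, with no minimum and without cycling cells, and 0 to 1 with a library left out. For high over int cells of that mouse it was 1, against 0 without ribosomal protein genes, with the mean over cells, after thinning and with cells of at least 3000 transcripts, 2 with genes of at least 10 transcripts or no minimum, and 0 to 1 with a library left out. Between the C-mycD/DCd4 and C-mycfl/fl mice it was 1 in CD122- cells, against 0 with the median subtracted or without the RNA quality genes, 3 with the mean over cells, 2 with cells of at least 3000 transcripts or without cycling cells (Noct at 1.08 and Cnot6l at 1.16), and 0 to 4 with a library left out. In CD122+ cells of these mice it was 5, against 4 after thinning and 4 to 6 with a library left out. For CD122+ over CD122- cells of the C-mycD/DCd4 mouse it was 5, against 3 with the mean over cells or without cycling cells, 2 after thinning, 4 without the RNA quality genes, 6 with genes of at least 10 transcripts or no minimum, and 2 to 5 with a library left out. Members lower in cycling cells of all 5 populations were 2, and at a limit of 0.5% of transcripts 1 (Noct) was lower in all 7 populations with enough cells. At a limit of 2% no population had enough cells of both kinds. Shares of cells with a transcript had separate intervals in TBGR int and high cells for 5 members after thinning and for 4 without it.

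For the C-mycfl/fl comparisons the shared library was the replicate block. With no replicate block 0 and 1 members were called, as with it, while the calls over all genes went from 174 to 88 for CD122+ over CD122- cells and from 62 to 56 for high over int cells. In the other comparisons no paired analysis was possible because the results come from no test and the groups share no library. Some labels carry the same number, and no source says that it marks a shared batch.

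Calls over all genes grew more than 1.5 times in each comparison with at least 10 transcripts or no minimum (from 363 to 2073 and 3503 in the first) and shrank as much with thinning (to 79). They also went from 381 to 214 for TBGR high over int cells without cycling cells, and from 142 to 54 with the median subtracted, 68 without RNA quality genes and 46 without cycling cells for CD122- cells of the C-mycD/DCd4 over the C-mycfl/fl mouse. With the median subtracted, calls higher and lower went from 294 and 69 to 162 and 123 for CD122+ over CD122- cells of the TBGR mouse, from 68 and 78 to 54 and 94 for int over CD122+ cells, from 147 and 27 to 43 and 83 for CD122+ over CD122- cells of the C-mycfl/fl mouse, from 35 and 27 to 42 and 15 for its high over int cells, and from 136 and 6 to 26 and 28 for CD122- cells of the C-mycD/DCd4 over the C-mycfl/fl mouse. Without RNA quality genes 64% of the 300 calls were higher in the first of these, and calls higher and lower were 50 and 96, 73 and 73, 39 and 17, and 51 and 17 in the others, and without ribosomal protein genes 85 and 61 for int over CD122+ cells of the TBGR mouse.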
